A study of Mus musculus with 12 samples.

Results

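Hepatic glucose production and storage was followed through 9 genes, Pcx, Pck1, Fbp1, G6pc, Slc2a2, Pklr, Pfkfb1, Gys2 and Pygl. They were chosen by gene symbol rather than by a cut on their values, but with earlier results of these data known. They are 9 of the 25611 genes in the table of read counts. All 9 were among the 13190 genes that passed the filter on low counts. The counts came from RNA-seq of whole liver of male C57BL/6J mice aged 8 to 10 weeks at purchase with free access to chow. A group of 4 mice had sham surgery (sham), 4 had cecal ligation and puncture (CLP), in which gut content leaks into the abdomen and causes sepsis, and 4 had CLP followed by the pyruvate dehydrogenase kinase inhibitor dichloroacetate (CLP+DCA). DCA was given at 25 mg/kg 24 hr after surgery, and all 12 livers were taken 30 hr after surgery, 6 hr after the injection. The labels give every mouse an injection at 24 hr but do not name what sham and CLP mice received. Each library is 1 mouse, and there was no group of sham mice given DCA, so the effect of DCA was measured in septic mice alone. In whole liver, fewer cells of a type and less RNA per cell cannot be told apart.

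The liver keeps blood glucose up between meals by breaking down glycogen and by gluconeogenesis, the making of glucose from lactate, amino acids and glycerol. Gluconeogenesis bypasses the irreversible steps of glycolysis with its own enzymes: pyruvate carboxylase (Pcx) and phosphoenolpyruvate carboxykinase (Pck1) in place of pyruvate kinase (Pklr), fructose-1,6-bisphosphatase (Fbp1) in place of phosphofructokinase, and glucose-6-phosphatase (G6pc) in place of glucokinase. Slc2a2 (GLUT2) carries glucose across the hepatocyte membrane, Gys2 makes glycogen, Pygl breaks it down, and Pfkfb1 sets the level of fructose-2,6-bisphosphate, the signal that favours glycolysis over gluconeogenesis. Glucagon and glucocorticoids raise, and insulin lowers, transcription of Pck1 and G6pc.

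The promoters of 3 of these genes are shown because cyclic AMP, insulin and hepatocyte factors are known to act there. Of the 3, G6pc and Pklr passed the test of CLP versus sham below. Pck1 passed in no comparison in the edgeR fit of all 12 mice. Each sequence is the 250 bases before the RefSeq start on GRCm38.p6, read 5′ to 3′ on the + strand of the genome, which is the strand of the gene in all 3. Capitals mark matches, on either strand, to a list of 12 short motifs. G6pc is shown from chr11:101367466-101367715, Pck1 from chr2:173152823-173153072 and the second listed start of Pklr from chr3:89136373-89136622.
G6pc: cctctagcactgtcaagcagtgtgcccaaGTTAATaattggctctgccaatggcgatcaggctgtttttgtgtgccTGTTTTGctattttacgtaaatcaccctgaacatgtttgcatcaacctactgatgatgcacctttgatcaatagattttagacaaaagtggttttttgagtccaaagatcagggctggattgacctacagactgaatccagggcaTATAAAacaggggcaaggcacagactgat
Pck1: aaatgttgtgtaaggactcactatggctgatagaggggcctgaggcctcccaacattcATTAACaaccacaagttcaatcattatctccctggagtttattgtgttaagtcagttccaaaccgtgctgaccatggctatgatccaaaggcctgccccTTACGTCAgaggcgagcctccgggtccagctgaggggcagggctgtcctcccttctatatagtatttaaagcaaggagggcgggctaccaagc
Pklr: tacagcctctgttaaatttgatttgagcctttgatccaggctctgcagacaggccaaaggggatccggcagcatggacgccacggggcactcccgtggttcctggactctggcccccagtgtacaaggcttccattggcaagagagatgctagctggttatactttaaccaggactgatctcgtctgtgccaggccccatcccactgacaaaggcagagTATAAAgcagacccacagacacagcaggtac

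In G6pc the capitals are, from the left, the HNF1 motif GTTAAT, the insulin response core CAAAACA on the minus strand and the TATA box TATAAA. In Pck1 they are GTTAAT on the minus strand and TTACGTCA, the liver form of the cyclic AMP response element, and in Pklr TATAAA. Of the 32851 promoter windows in the RefSeq table, 0.447% held TTACGTCA, 5.56% CAAAACA, 6.43% GTTAAT and 12.4% TATAAA. Of the 8 members with a promoter in that table, TTACGTCA was found in 1 (Pck1), CAAAACA in 1 (G6pc), GTTAAT in 3 (Pck1, G6pc and Pfkfb1), TATAAA in 3 (G6pc, Pklr and Pfkfb1) and the E-box CACGTG, held by 6.02% of windows, in 1 (Pcx). None of the matches shown overlapped each other. The other 7 motifs had no match in any of the 8. They were the forkhead letters GTAAACA (3.17% of windows), TGACGTCA (1.55%), the HNF4 core CAAAGTCCA (0.384%), the glucocorticoid receptor letters AGAACA (16.1%), the C/EBP letters TTGCGCAA (0.164%), the STAT3 letters TTCCNGGAA (0.913%) and the NF-kappaB letters GGACTTTCC (0.283%). A match is a description of letters only. The counts are per gene and do not separate the 13 listed starts, of which Pfkfb1 has 4 and Pcx and Pklr 2 each. The shares are per window, so a gene with several starts had more windows in which to match. Both matches of Pfkfb1 lay at start 3 of its 4.

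The 12 libraries held between 24436513 and 44266819 counted reads. Acute phase protein genes took 12.2 to 13.6% of reads in sham mice and 21.3 to 35.8% in CLP mice. CLP+DCA replicate 3 lay in the CLP range at 34.95%, and the other CLP+DCA mice lay between 15.9 and 20.1%. On the first principal component of log2 CPM (reads of a gene per 1000000 reads of its library), which held 59.2% of the variance, CLP+DCA replicate 3 lay at 82.6, past the highest CLP mouse at 72.8, while the other CLP+DCA mice lay between -28.9 and -16.4. The comparisons of the 9 members are therefore given with and without this mouse. It was picked out for its likeness to the CLP mice. For genes that share this likeness, leaving it out favours a difference between CLP+DCA and CLP. CLP replicate 3 carried transcripts of skeletal muscle: the sum of 10 muscle markers was 2105 CPM there and 0.569 to 2.87 CPM in the other 11 libraries. The 14 hepatocyte markers, Alb, Apoa1 and Trf among them, summed to between 77981 and 115171 CPM in all 12 libraries. This sum mixed opposite changes and is no measure of hepatocyte content. Alb read 39666 to 58481 CPM in sham and 15323 to 24432 CPM in CLP, and Trf 17412 to 20019 and 20722 to 46626 CPM. Of the 14 log2 fold changes of CLP versus sham, 10 lay below 0 and 4 above.

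Among the members of gluconeogenesis and glucose release, 1 (G6pc) passed the test in septic liver, against 2.78% of all genes tested. Its call held in 11 of 22 alternative settings. G6pc, the last step of both gluconeogenesis and glycogen breakdown, fell 2.68-fold in CLP, whereas Pck1, Pcx, Fbp1 and the transporter Slc2a2 did not pass the test. Fbp1 was high in 1 CLP and 1 CLP+DCA mouse, and Slc2a2 varied widely within every group.

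G6pc (chr11:101367716-101377903 on mm10, + strand) read 107, 195, 99.9 and 142 CPM in sham replicates 1 to 4, 44.4, 44.9, 66.8 and 46.6 CPM in CLP, and 154, 145, 64.0 and 168 CPM in CLP+DCA. Every CLP mouse lay below every sham mouse, 3 of 4 CLP+DCA mice lay within the sham range, and CLP+DCA replicate 3 lay within the CLP range. The log2 fold change of CLP versus sham was -1.42 ± 0.30 (SE, n = 4 mice per group, edgeR adjusted p = 0.0404). The exact permutation test on log2 CPM gave p = 0.0286, the smallest that 4 against 4 mice allow.

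Pck1 (chr2:173153073-173159253, + strand), which makes phosphoenolpyruvate from oxaloacetate, read 2397, 2474, 2614 and 2908 CPM in sham, 1969, 1633, 2726 and 2076 CPM in CLP, and 3547, 3834, 2141 and 3990.1 CPM in CLP+DCA. CLP overlapped sham through CLP replicate 3, and 3 of 4 CLP+DCA mice lay above all sham and CLP mice. In CLP versus sham the log2 fold change was -0.31 ± 0.21 (SE, edgeR adjusted p = 0.339, exact permutation p = 0.114), which did not pass the test.

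Pcx (chr19:4510472-4621752, + strand), the mitochondrial enzyme that turns pyruvate into oxaloacetate, varied little within groups, with a coefficient of variation of 8.37 to 14.9%. It read 543, 659.6, 563 and 518 CPM in sham, 546, 751, 581 and 692 CPM in CLP, and 506, 584, 617 and 595 CPM in CLP+DCA. The groups overlapped throughout, and the log2 fold change of CLP versus sham was 0.17, with a 95% interval of -0.13 to 0.47.

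Fbp1 (chr13:62864753-62888282, - strand) read 809.9, 926, 767 and 1104 CPM in sham, 755, 2183, 843 and 1049 CPM in CLP, and 717, 753, 2023 and 933 CPM in CLP+DCA. CLP replicate 2 and CLP+DCA replicate 3 stood at about the same high level and every other septic mouse lay within or just below the sham range. The log2 fold change of CLP versus sham was 0.42 ± 0.39 (SE, edgeR adjusted p = 0.478), and it was -0.03 without CLP replicate 2.

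Slc2a2 (chr3:28697903-28728360, + strand), the glucose transporter, read 86.9, 161, 139 and 46.3 CPM in sham, 46.9, 18.4, 77.0 and 36.8 CPM in CLP, and 82.8, 84.5, 10.5 and 124 CPM in CLP+DCA. The lowest values were those of CLP replicate 2 and CLP+DCA replicate 3, the same mice in which Fbp1 was high. Its log2 fold change of -1.27 in CLP versus sham was close in size to that of G6pc, but with an SE of 0.64 it did not pass the test (edgeR adjusted p = 0.208). The coefficient of variation within groups of Slc2a2 was 47.8% for sham, 54.8% for CLP and 62.6% for CLP+DCA.

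**Figure D1:**
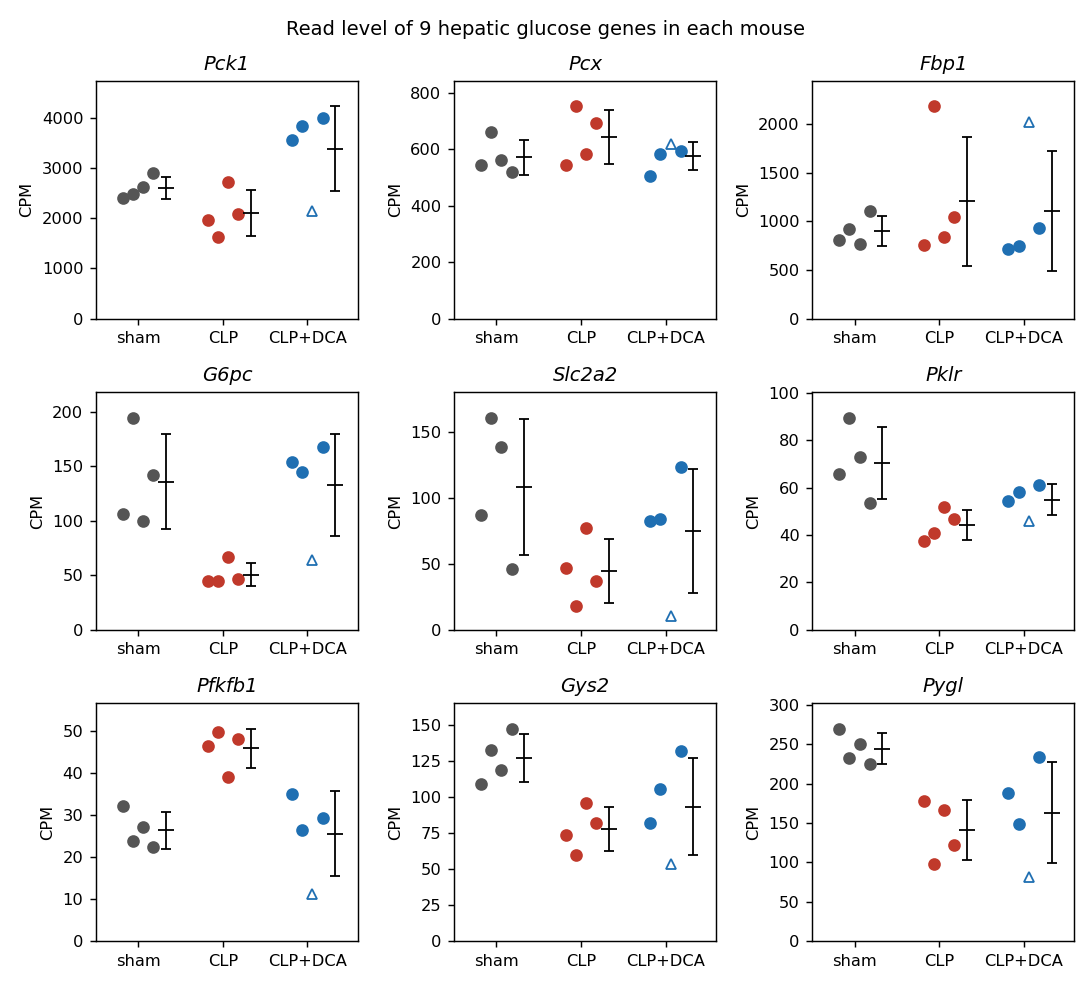
Depth-scaled counts (CPM, linear axes from 0) of the 9 genes in each of the 12 mice, by group, with the group mean and SD (n = 4) beside the points. The open triangle is CLP+DCA replicate 3. For G6pc, Pklr, Gys2, Pygl and Pfkfb1 no CLP mouse overlaps the sham mice, as held for 26.5% of all genes tested. For Fbp1 1 CLP mouse (2183 CPM) and the triangle (2023 CPM) stand above all others.

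Of the glycolytic members, Pklr fell 1.59-fold in CLP, and Pfkfb1 was 1.74-fold higher in CLP without passing the test on all 12 mice. Pklr (chr3:89136142-89146594, + strand), the liver pyruvate kinase and a target of insulin and glucose, read 65.7, 89.6, 73.1 and 53.4 CPM in sham, 37.7, 40.7, 52.0 and 46.6 CPM in CLP, and 54.5, 58.0, 45.9 and 61.3 CPM in CLP+DCA. CLP did not overlap sham, although CLP replicate 3 lay just below sham replicate 4. The log2 fold change was -0.67 ± 0.16 (SE, edgeR adjusted p = 0.0479, exact permutation p = 0.0286).

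Pfkfb1 (chrX:150589921-150643878, + strand), the liver form of the enzyme that makes and removes fructose-2,6-bisphosphate, read 32.1, 23.7, 27.1 and 22.3 CPM in sham, 46.4, 49.9, 39.1 and 48.0 CPM in CLP, and 34.96, 26.5, 11.2 and 29.4 CPM in CLP+DCA. All 4 CLP mice lay above all sham and all CLP+DCA mice, and CLP+DCA replicate 3 had the lowest value of the 12. Its log2 fold change in CLP versus sham was 0.80 ± 0.27 (SE, edgeR adjusted p = 0.0901, exact permutation p = 0.0286).

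The pair of glycogen enzymes read lower together. Gys2 (chr6:142422613-142473109, - strand), liver glycogen synthase, read 109, 132, 118 and 147 CPM in sham, 73.4, 59.3, 95.4 and 81.7 CPM in CLP, and 81.5, 105, 53.0 and 132 CPM in CLP+DCA. Pygl (chr12:70190815-70227683, - strand), liver glycogen phosphorylase, read 269.8, 233, 251 and 224 CPM in sham, 178, 98.2, 167 and 121 CPM in CLP, and 189, 149, 81.4 and 233 CPM in CLP+DCA. Neither gene overlapped between CLP and sham, and in both CLP+DCA replicate 3 was the lowest of all 12 mice. The log2 fold changes of CLP versus sham were -0.71 ± 0.24 for Gys2 (SE, edgeR adjusted p = 0.0932) and -0.79 ± 0.28 for Pygl (SE, edgeR adjusted p = 0.101), neither of which passed on all 12 mice. The ratio of synthase to phosphorylase, on length-scaled levels within a mouse, overlapped between groups, at 0.508 to 0.824 for sham, 0.518 to 0.847 for CLP and 0.544 to 0.891 for CLP+DCA.

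Of the 9 members, 2 (G6pc and Pklr) passed the test in CLP versus sham, both lower, against 2.78% of the 13190 genes tested in either direction, 1.64% higher and 1.14% lower. At an unadjusted p under 0.05 there were 5 members and 28.6% of all genes. For 5 of 9 the groups did not overlap, against 26.5% of all genes. The members' median log2 fold change was -0.67, and that of all genes tested was 0.02. The number of calls rested on single mice. It was 0 without any 1 sham mouse, without CLP replicate 1, 2 or 4, or without CLP+DCA replicate 1 or 2, and it stayed at 2 without CLP replicate 3 or CLP+DCA replicate 4. Without CLP+DCA replicate 3, which is not part of the comparison but adds to the shared estimate of spread, 5 of 9 members passed, against 23.8% of all genes. G6pc, Pklr, Gys2 and Pygl fell, as did 11.5% of all genes, and Pfkfb1 rose, as did 12.2%. In the order G6pc, Pklr, Gys2, Pygl and Pfkfb1 their edgeR adjusted p-values were then 0.00251, 0.0105, 0.0149, 0.0148 and 0.00332. DESeq2 on the 8 libraries compared called 5 members, against 23.2% of all genes. Over the 22 alternatives the adjusted p ranged from 1.02e-07 to 0.121 for G6pc, from 0.00219 to 0.136 for Pklr, from 2.9e-04 to 0.229 for Gys2, from 5.39e-04 to 0.244 for Pygl and from 2.75e-06 to 0.205 for Pfkfb1, with the same direction throughout.

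DCA was compared with CLP in septic mice to ask which of these levels differed 6 hr after the drug. On all 4 mice per group none of the 9 members passed the test, where 0.00758% of all genes (1 gene, Irf7, named after its value was seen) did. At an unadjusted p under 0.05 there were 3 members, Pck1, G6pc and Pfkfb1, and 10% of all genes, and DESeq2 on the same 8 libraries called 1 member, G6pc, and 0.615% of all genes. The largest difference was that of G6pc, 2.62-fold higher in CLP+DCA (log2 fold change 1.39 ± 0.30, SE, edgeR adjusted p = 0.178, exact permutation p = 0.0571). Pck1 was 1.61-fold higher (0.69 ± 0.21, SE, edgeR adjusted p = 0.363). Pfkfb1, the only member whose CLP and CLP+DCA mice did not overlap, against 4.37% of all genes, was 1.80-fold lower (-0.85 ± 0.27, SE, edgeR adjusted p = 0.375, exact permutation p = 0.0286).

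Without CLP+DCA replicate 3, 3 of 9 members passed in CLP+DCA versus CLP, against 4.64% of all genes (2.01% higher and 2.63% lower). That mouse was picked out because it lay with CLP on the first principal component. For genes that share this likeness the fit favours a difference by construction, and it is no independent test of DCA. For Pfkfb1 that mouse lay farthest from CLP, at 11.2 CPM, and leaving it out moved the log2 fold change from -0.85 to -0.60. Calls over all genes went from 1 to 616. G6pc rose by 1.62 ± 0.22 on the log2 scale (SE, edgeR adjusted p = 0.0115), Pck1 rose by 0.85 ± 0.16 (adjusted p = 0.0234) and Pfkfb1 fell by 0.60 ± 0.14 (adjusted p = 0.0381). Over the 22 alternatives these adjusted p-values ranged from 0.00238 to 0.434 for G6pc, from 0.00848 to 0.719 for Pck1 and from 0.0381 to 0.719 for Pfkfb1. The other 6 members did not pass with or without this mouse. Their intervals on all mice were wide for Slc2a2 (-0.64 to 2.13 on the log2 scale) and Fbp1 (-0.98 to 0.73), and narrower for Gys2 (-0.26 to 0.79), Pygl (-0.40 to 0.82), Pklr (-0.03 to 0.66) and Pcx (-0.46 to 0.14).

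**Figure D2:**
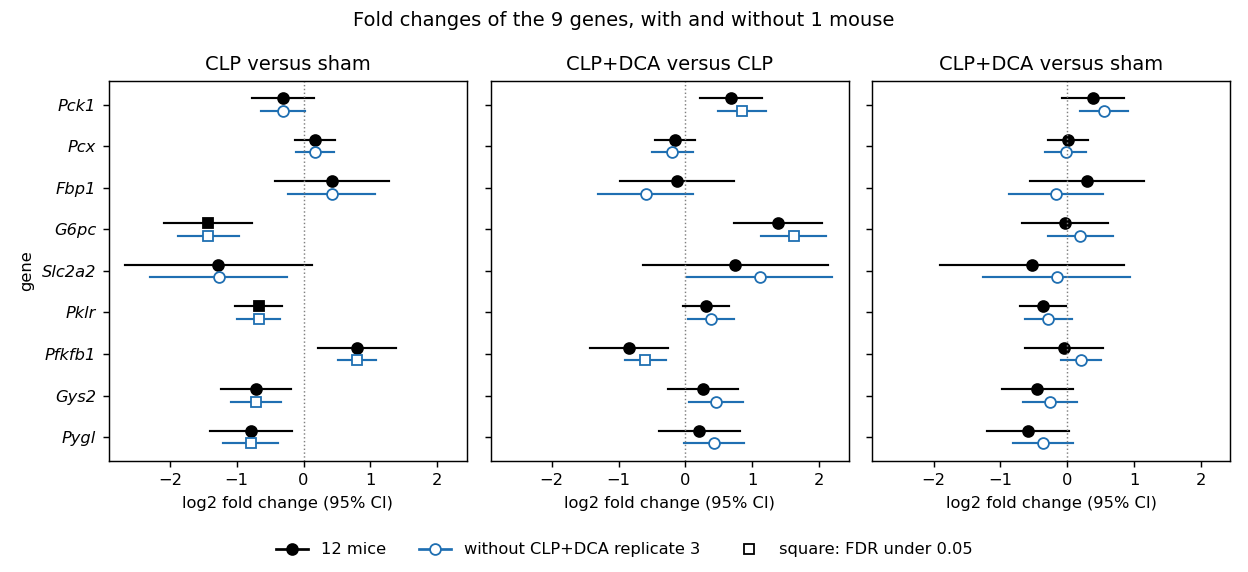
Log2 fold change (x axis) of each gene (y axis) in the 3 comparisons with its 95% interval, from edgeR on all 12 mice (filled black) and without CLP+DCA replicate 3 (open blue). Squares passed the test. In CLP versus sham 2 genes are squares on all mice and 5 without that mouse, against 2.78% and 23.8% of all genes. In CLP+DCA versus CLP there are 0 and 3, against 0.00758% and 4.64% of all genes. That mouse was picked out for its likeness to CLP.

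Against sham, none of the 9 members passed in CLP+DCA, where 0.0379% of all genes (5 genes, Saa3, Per1, Lrrc8a, AA986860 and Sc5d, named after their values were seen) did, 0.0303% higher and 0.00758% lower. At an unadjusted p under 0.05 there was 1 member, Pklr, against 13% of all genes. DESeq2 on the 8 libraries called 0 members and 1.19% of all genes, and no member's groups failed to overlap, against 9.76% of all genes. The log2 fold changes were 0.38 ± 0.21 (SE) for Pck1, -0.36 ± 0.16 for Pklr, -0.45 ± 0.24 for Gys2, -0.59 ± 0.28 for Pygl and -0.52 ± 0.63 for Slc2a2. For G6pc and Pfkfb1 the CLP+DCA means of 133 and 25.5 CPM stood beside sham means of 136 and 26.3 CPM, with 95% intervals of -0.68 to 0.61 and -0.63 to 0.54 on the log2 scale. Without CLP+DCA replicate 3 the count stayed at 0 members, against 0.0828% of all genes (0.0677% higher and 0.0151% lower). Pck1 was then 0.54 above sham on the log2 scale (unadjusted p = 0.00621, edgeR adjusted p = 0.342, with 0.0355 to 0.64 over the alternatives), and all 3 remaining CLP+DCA mice exceeded all sham mice. The 3 comparisons share their mice, so their values for a gene are not independent of each other.

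On a length-scaled basis (reads per kilobase of exon, scaled to the same sum in each library), Pck1 and Fbp1 were the most abundant members in sham, at 2130 ± 173 and 1331 ± 226 (SD, n = 4). Pcx followed at 294 ± 35.8, then Pygl at 160 ± 12.8, G6pc at 123 ± 41.3, Gys2 at 104 ± 13.9, Pklr at 50.6 ± 11.4, Slc2a2 at 42.5 ± 20.6 and Pfkfb1 at 28.2 ± 4.61. Neighbours from Pygl to Gys2, and from Pklr to Pfkfb1 by way of Slc2a2, differed by less than the sum of their SDs. In CLP the order of the lower members changed, with Pfkfb1 at 41.1 ± 2.91 above G6pc at 39.1 ± 12.7, Pklr at 26.9 ± 6.11 and Slc2a2 at 15.5 ± 10.1, and the first 2 of these did not differ beyond their spread. In CLP+DCA G6pc stood at 115 ± 46.8 and Pfkfb1 at 26.3 ± 12.02.

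Liver shares these reactions with other tissues through paralogs, enzymes encoded by other genes, and 11 of 14 listed paralogs passed the filter. Of these, 1 rose in CLP versus sham, against 1.64% of all genes, and none fell. All 11 log2 fold changes were above 0 (median 0.91), as were those of 6844 of the 13190 genes tested. However, G6pc3 and Slc2a1 lay below 0 with scaling by library size alone, and Slc2a1 also without sham replicate 2, sham replicate 4 or CLP replicate 1. The median was 0.56 without CLP replicate 3 and 0.60 by voom. Between CLP+DCA and CLP 0 passed, against 0.00758% of all genes, and 3 of 11 lay above 0, as did 6802 of the 13190 genes tested. Pfkfb2, the heart and kidney form of the fructose-2,6-bisphosphate enzyme, rose 2.41-fold. It read 45.8, 45.1, 35.2 and 45.4 CPM in sham, 78.9, 147, 73.5 and 114 CPM in CLP, and 82.6, 81.0, 133 and 58.1 CPM in CLP+DCA. Both septic groups lay above all sham mice (CLP versus sham 1.27 ± 0.27, SE, edgeR adjusted p = 0.0396). The call held in 11 of the 22 alternatives, with adjusted p-values from 1.3e-06 to 0.114, and was lost without any 1 sham mouse, CLP replicate 1, 2 or 4, or CLP+DCA replicate 1 or 2. The value for CLP+DCA against sham was 1.05 ± 0.27 (adjusted p = 0.23), and 0.78 ± 0.23 without CLP+DCA replicate 3 (adjusted p = 0.313).

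Pfkfb3, the form that is induced by hypoxia and inflammation, read 7.66, 13.3, 11.1 and 6.87 CPM in sham, 12.5, 36.5, 20.6 and 14.3 CPM in CLP, and 35.2, 51.0, 76.3 and 20.4 CPM in CLP+DCA. CLP+DCA lay above all sham mice, with a log2 fold change of 2.23 ± 0.44 (SE, unadjusted p = 3.00e-04, edgeR adjusted p = 0.146, range over alternatives 1.59e-05 to 0.481). Leaving out CLP+DCA replicate 3 gave 1.86 ± 0.42 (adjusted p = 0.202). Against CLP it was at 1.13 ± 0.42 (adjusted p = 0.422, and 0.77 without that mouse), and in CLP versus sham 1.10 ± 0.43 (adjusted p = 0.125). The length-scaled level of Pfkfb1 was 4.83 to 11.4 times that of Pfkfb3 in sham, 3.71 to 10.1 times in CLP, and 0.40 to 3.91 times in CLP+DCA mice, lowest in replicate 3.

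Some paralogs read highest in CLP replicate 3, the mouse with muscle transcripts. Pygm, the muscle phosphorylase, read 68.6 CPM there and at most 0.668 CPM in the other 11 libraries, and its log2 fold change of CLP versus sham of 5.43 became 0.18 without that mouse. For Gys1, the muscle glycogen synthase, the same values were 1.15 and 0.39, and for Pkm, the pyruvate kinase of muscle and most other tissues, 1.45 and 0.69. Gys1 read 13.8 CPM and Pkm 58.0 CPM in that mouse, but both were also high in CLP+DCA replicate 3, at 10.97 and 40.5 CPM, where the muscle markers summed to 0.62 CPM. The other CLP+DCA mice read at most 3.38 CPM of Gys1 and 14.4 CPM of Pkm. The ratio of Pklr to Pkm, on length-scaled levels, was 4.87 to 9.02 in sham, 0.766 to 3.67 for CLP, and 0.967 to 6.13 for CLP+DCA, and that of Gys2 to Gys1 was 45.3 to 78.8, 9.59 to 31.6 and 6.69 to 57.7. CLP replicate 3 and CLP+DCA replicate 3 gave the lowest value of their group in both ratios, and the other 3 CLP mice still lay below all sham mice. Pck2 (log2 fold change 0.34), G6pc3 (0.09), Slc2a1 (0.03), Slc2a3 (0.56), Pfkfb4 (0.91) and Pygb (0.53) did not pass in CLP versus sham. Their length-scaled sham means ran from 0.2 to 8.4, below every member.

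**Figure D3:**
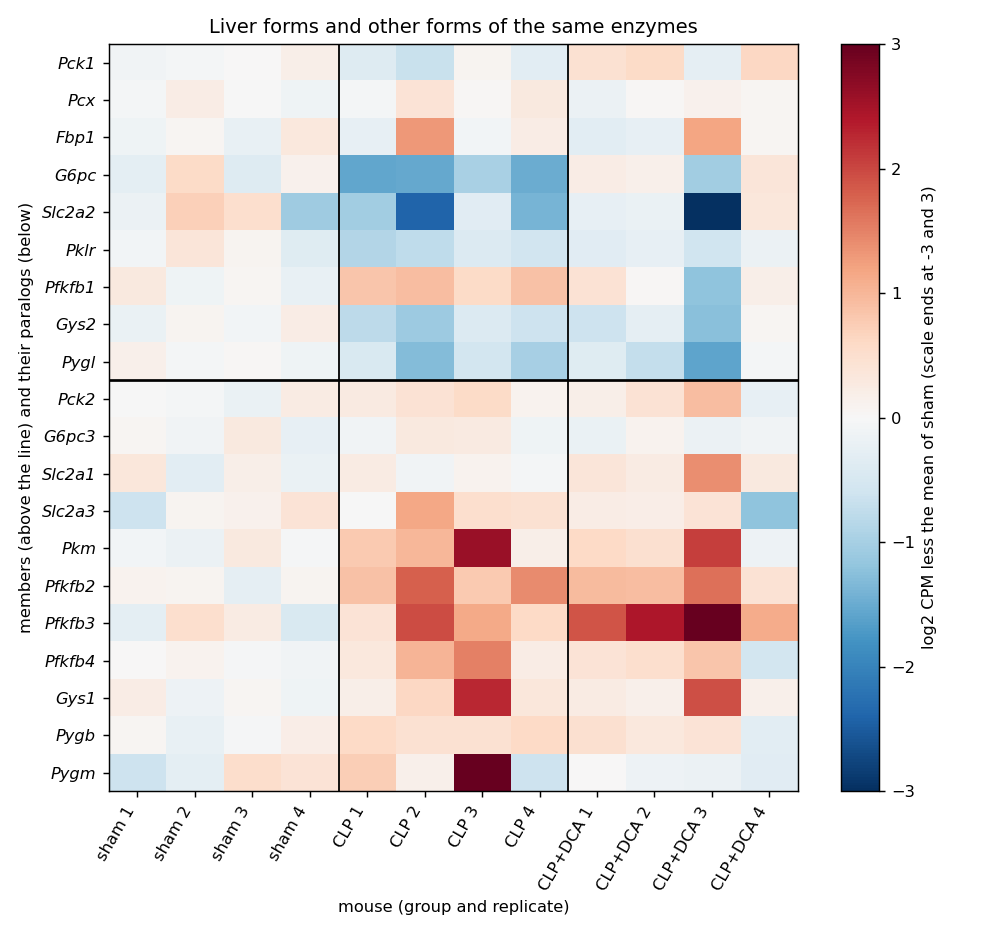
Log2 CPM of each gene (rows: the 9 members above the line, 11 paralogs below) in each mouse (columns), less the mean of the 4 sham mice. Blue is lower and red higher than sham, with the scale ending at -3 and 3. G6pc, Slc2a2, Pklr, Gys2 and Pygl are mostly blue in CLP, Pfkfb2 is red in all septic mice, and Pygm, a gene of under 1 CPM in the other 11 mice, is deep red in CLP replicate 3.

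Other genes of the same pathways were read from lists. Of 24 tested genes of gluconeogenesis and glucose release (other than the members), 0 passed in CLP versus sham (edgeR). In the same comparison 10 had an unadjusted p under 0.05, against 28.6% of all genes. Log2 fold changes lay below 0 for 20 of the 24, with a median of -0.22, and for 6346 of the 13190 genes tested. Mdh1, the cytosolic malate dehydrogenase of the malate shuttle, had a log2 fold change of -0.50 ± 0.13 (SE, edgeR adjusted p = 0.0613) and Tpi1, triosephosphate isomerase, -0.33 ± 0.09 (adjusted p = 0.0691). Without CLP+DCA replicate 3, 9 of these 24 genes fell, among them Mdh1 and Tpi1, and 1 rose, against 11.5% and 12.2% of all genes. With DCA against CLP 0 passed on all mice, 6 had an unadjusted p under 0.05, against 10% of all genes, and the smallest p-values were those of Gpt2, an alanine aminotransferase (0.50 ± 0.17, adjusted p = 0.4), and Ldhb (-2.61 ± 0.95, adjusted p = 0.414). Ldhb was 19.3 CPM in CLP replicate 3 and at most 1.38 CPM elsewhere, and its log2 fold change was -0.03 without that mouse. Leaving out CLP+DCA replicate 3, Gpt2 was at 0.33 (edgeR adjusted p = 0.154), and 2 of the 24 passed, Slc37a4, the glucose-6-phosphate transporter, which rose by 0.64 ± 0.13 on the log2 scale (SE, adjusted p = 0.0292), and Slc16a1, a lactate transporter, which fell by 1.57 ± 0.26 (adjusted p = 0.0192), against 2.01% higher and 2.63% lower of all genes.

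Of 15 genes of glucose uptake and glycolysis, 1 fell in CLP, against 1.14% of all genes. It was Khk, ketohexokinase, the entry of fructose into metabolism, at -0.67 ± 0.16 (SE, edgeR adjusted p = 0.0491). The call held in 7 of 22 alternatives, with adjusted p-values from 0.00101 to 0.125, and among single mice left out it held without CLP replicate 3 or CLP+DCA replicate 3 alone. Hk2, the hexokinase of muscle, had a log2 fold change of 2.33 (adjusted p = 0.0799), which was 0.69 without CLP replicate 3. No gene of this list passed with DCA against CLP, where the smallest p-values were those of Tkfc (0.33 ± 0.12, adjusted p = 0.414) and Pfkl, liver phosphofructokinase (0.42 ± 0.16, adjusted p = 0.422). These were at 0.36 and 0.19 without CLP+DCA replicate 3, and 0 of 15 passed, against 4.64% of all genes.

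Of 23 tested genes of glycogen metabolism, 1 rose in CLP, against 1.64% of all genes. It was Pgm3 (1.27 ± 0.30, SE, edgeR adjusted p = 0.0478), a phosphoglucomutase family member that acts in amino sugar synthesis rather than on glycogen. This call held in 10 of 22 alternatives, with adjusted p-values from 2.73e-04 to 0.133, and was lost without any 1 sham mouse, CLP replicate 1, 2 or 4, or CLP+DCA replicate 1 or 2. Ppp1r3g, a subunit that brings phosphatase to glycogen, read 0.335 to 3.64 CPM in sham and 0 to 0.191 CPM in CLP (edgeR adjusted p = 0.0529), a level of few reads. With DCA against CLP 0 passed, and 1 had an unadjusted p under 0.05, against 10% of all genes. The smallest p-values were those of Phkb, a phosphorylase kinase subunit (-0.26 ± 0.11, adjusted p = 0.497), and Ppp1r3b, the liver glycogen targeting subunit (0.78 ± 0.37, adjusted p = 0.506). With CLP+DCA replicate 3 left out these were at -0.20 and 1.05 (edgeR adjusted p = 0.267 and 0.0567), and 0 of 23 passed, against 4.64% of all genes.

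Of 31 tested transcriptional regulators, 1 fell in CLP, against 1.14% of all genes. It was Sik1, a cyclic AMP-induced kinase that restrains the CREB coactivators of Pck1 and G6pc. It read 30.1, 32.7, 25.6 and 47.7 CPM in sham, 14.3, 16.9, 11.9 and 13.2 CPM in CLP, and 27.04, 30.1, 50.9 and 27.2 CPM in CLP+DCA. No CLP mouse overlapped either other group, and CLP+DCA replicate 3 was the highest of the 12, so for Sik1 it did not sit with CLP. The log2 fold change was -1.28 ± 0.24 in CLP versus sham (SE, edgeR adjusted p = 0.0294, under 0.05 in 14 of 22 alternatives with a highest value of 0.0915, and lost without any 1 sham mouse or CLP replicate 1, 2 or 4) and 1.27 ± 0.24 in CLP+DCA versus CLP (adjusted p = 0.127, and 0.0213 without CLP+DCA replicate 3, with 3.52e-04 to 0.346 over the alternatives). Ppargc1b was at -0.91 ± 0.26 in CLP versus sham (adjusted p = 0.0691) and Foxa2, a liver forkhead factor, at -0.62 ± 0.14 in CLP+DCA versus CLP (adjusted p = 0.178, and 0.0161 by DESeq2 on the 8 libraries). Without CLP+DCA replicate 3, 8 of the 31 fell and 2 rose in CLP versus sham, against 11.5% and 12.2% of all genes. With DCA against CLP 3 then rose, Sik1, Esrra (0.55 ± 0.13, SE, edgeR adjusted p = 0.0383) and Klf15, a glucocorticoid-induced factor of amino acid catabolism (0.95 ± 0.16, adjusted p = 0.0192), and Foxa2 fell (-0.56 ± 0.14, adjusted p = 0.0474), against 2.01% and 2.63% of all genes.

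Of 26 genes of insulin and glucagon signalling, 0 passed in CLP versus sham and 8 had an unadjusted p under 0.05, against 28.6% of all genes. Socs3, an inhibitor of cytokine and insulin signalling, read 39.7 to 59.6 CPM in sham and 131 to 157 CPM in CLP (1.57 ± 0.38, SE, edgeR adjusted p = 0.0522). In CLP+DCA it read 45.8 to 74.3 CPM in 3 mice and 198 CPM in replicate 3. Between CLP+DCA and CLP 0 passed, and the smallest p-values were those of Prkaca (-0.21 ± 0.08, adjusted p = 0.414) and Pik3r1 (0.55 ± 0.21, adjusted p = 0.422). These were at -0.21 and 0.26 when CLP+DCA replicate 3 was left out. In that fit 1 of 26 passed, against 4.64% of all genes (2.63% lower). It was Socs3, which fell by 1.26 ± 0.17 on the log2 scale (SE, edgeR adjusted p = 0.0101).

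**Figure D4:**
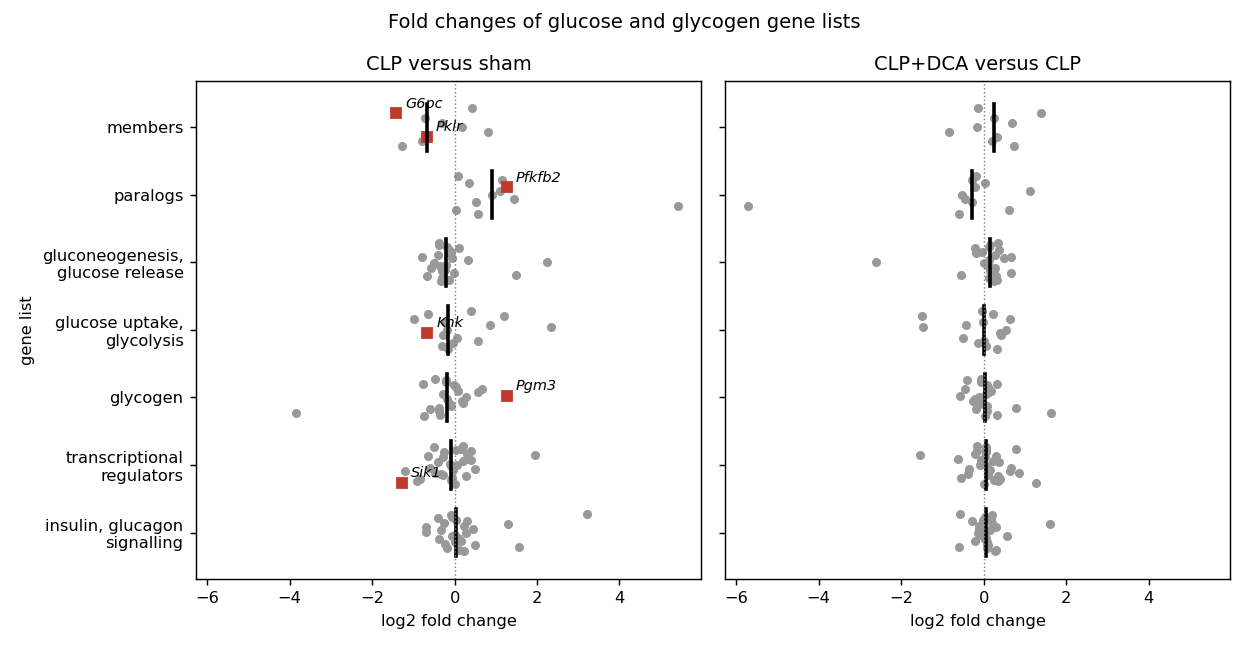
Log2 fold change (x axis) of every tested gene in 7 lists (y axis), for CLP against sham (left) and for CLP+DCA against CLP (right), with the list median as a black bar. Red squares passed the test and are named. The member median lies at -0.67 and the paralog median at 0.91 in CLP versus sham, and without CLP replicate 3 the paralog median is 0.56. The point past 5 is Pygm, which rests on that mouse.

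Markers of cell types and liver zones also moved between these groups, and their part in the results above was not tested. The calls of CLP versus sham on all mice below stand against 1.64% higher and 1.14% lower of all genes. The sum of 14 hepatocyte markers was 94084 to 115171 CPM in sham and 77981 to 93712 CPM in CLP, and 2 of 14, Alb and Apoc3, fell. Trf, in the same sum, read higher in every CLP mouse than in any sham mouse. Pericentral markers summed to 7950.2 to 11519 CPM in sham and 2322 to 9834 CPM in CLP, and periportal markers, the zone where gluconeogenesis is known to be strongest, to 5825 to 9542 and 4911 to 6011 CPM. None of the 12 markers of each zone passed, and without CLP+DCA replicate 3, 7 periportal (5 lower, 2 higher) and 4 pericentral markers (all lower) did, against 11.5% lower and 12.2% higher of all genes. In the same fit of CLP+DCA versus CLP, where G6pc and Pck1 rose, 8 of 12 neutrophil markers fell and 3 of 12 periportal markers rose, against 2.63% and 2.01% of all genes. Ass1, a periportal enzyme of the urea cycle, was near 0 in all 12 libraries, sham included, at 0.0271 to 0.903 CPM. It stays among the 12 periportal markers, and whether its reads were lost in counting was not tested. In CLP+DCA the sums ran from 1358 CPM (replicate 3) to 10910.4 CPM for pericentral and from 3337 CPM (replicate 3) to 7503 CPM for periportal markers. Of 14 neutrophil markers, 12 were tested and 3 (Lcn2, Mmp9 and Retnlg) rose. Of the 12 log2 fold changes 11 lay above 0 and 1 below. Ly6g read lower, at 0.669 to 1.04 CPM in sham and 0.269 to 0.701 CPM in CLP. Without Lcn2, also an acute phase gene of hepatocytes, the sum of the list was 6.96 to 10.04 CPM in sham, 34.4 to 48.7 CPM in CLP mice and 7.02 to 63.5 CPM in CLP+DCA, with Camp at 0 in all sham mice. Kupffer cell and macrophage markers summed to 213 to 354 CPM in sham and 332 to 423 CPM in CLP, and endothelial markers, of which 1 (Stab1) rose, to 137 to 175 and 177 to 210.5 CPM. Stellate cell and cholangiocyte markers ran from 78.5 to 119 and from 135 to 413 CPM, where the highest value is that of CLP replicate 3, with Des, also a muscle gene, at 172 CPM, and the other CLP mice reached 202 CPM. Lymphocyte markers ran from 2.67 to 5.79 CPM in sham and from 0.674 to 2.25 CPM in CLP, and no marker of these 2 lists passed. Of 30 acute phase genes 16 rose and 1, Hamp2, fell.

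Across the 12 mice the members fell into patterns, given here as description, since the points share 3 groups and the libraries named above. Slc2a2, Gys2 and Pygl gave the highest Pearson's r of log2 CPM over all 12 mice, 0.81 to 0.87. Within groups they gave 0.74 to 0.86, and the highest r was that of Pck1 and Gys2 (0.92). Pck1 and G6pc gave r = 0.80, and 0.78 within groups. Fbp1 ran opposite to Slc2a2 (r = -0.83) and Pygl (r = -0.75). Among 9086 other genes of at least 5 CPM, those most like the members were Abhd16a (r = 0.99) and Slc25a10 (0.98) for Slc2a2, Abca2 and Aco1 (both 0.98) for Pygl, Fech (0.97) and Cmtm8 (0.96) for Gys2, Gabbr2 and Coq8b (both 0.97) for Fbp1, and Blmh and Tsn (both 0.94) for G6pc. For Pck1 they were Gm14403 and Cyp26a1 (both 0.91), for Pklr Fam107b (0.94) and Pebp1 (0.93), for Pfkfb1 Pafah2 (0.94) and Bhmt2 (0.91), and for Pcx Hsd17b12 (0.91) and Yif1a (0.90).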

How the data were processed

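Whole-liver RNA of 12 mice (4 per group) was sequenced as 100-base paired poly(A) libraries. Per the study's methods STAR 2.5 was the authors' aligner to mm10, and featureCounts of Subread 1.5.0-p1 assigned reads to genes. The deposited values are raw counts per gene, with mm10 coordinates. The gene annotation and strand setting are not given in the sources used here, so overlapping genes could not be told apart. The deposited columns hold 1 library each.

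Counts were fitted with edgeR 4.0.16 in R 4.3.3 (filterByExpr with a minimum count of 10, TMM, robust quasi-likelihood with glmQLFit and glmQLFTest, all 12 libraries, group as the term). P-values were two-sided and adjusted by Benjamini-Hochberg over the 13190 genes tested, with 0.05 as the threshold. SE is the log2 fold change divided by the square root of F. CPM used TMM library sizes, and log2 CPM a prior count of 2. The exact permutation test was two-sided on log2 CPM. Length-scaled levels used exon lengths from GENCODE on GRCm38. Depth of 24436513 to 44266819 reads left 384 to 125432 reads per member and mouse. DESeq2 1.42.0 and voom in limma 3.58.1 were alternatives, as were other scalings, filters and thresholds, a replicate block, and leaving out each mouse.

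The members and gene lists were chosen with earlier results of these data known. Named beside the members were paralogs that passed the filter, list genes past the threshold in any comparison, the 2 genes with the smallest p per list in each comparison with CLP, and the 2 genes most like each member. A gene that this rule names is not reported here. The within-mouse ratios, the muscle markers, the neutrophil sum without Lcn2 and the paralog median without CLP replicate 3 were added after seeing the data, as were list genes called without CLP+DCA replicate 3. The labels give no batch or date. Deviations of same-numbered mice correlated at -0.46 to 0.55. The highest value was that of replicate 1 in CLP+DCA versus CLP, where replicates 2 and 3 lay at -0.46 and -0.42. The sign was not shared, so the numbers were not used as pairs.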

Additional observations from a re-analysis of the deposited data

Results flagged for a closer look

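In 3 of the 27 combinations of a member and a group, 1 mouse stood farther from the other 3 on log2 CPM than Dixon's 95% limit of 0.829 for 4 samples, where chance gives about 1 in 20. G6pc in CLP replicate 3 was 66.8 CPM against 44.4 to 46.6 CPM in the other CLP mice (gap over range 0.884 on the log2 scale), toward the sham level. G6pc in CLP+DCA replicate 3 was 64.0 CPM against 145 to 168 CPM (0.851), and Slc2a2 in the same mouse was 10.5 CPM against 82.8 to 124 CPM (0.838). The first of these mice carried muscle transcripts, and the other held 34.95% of its reads in acute phase genes.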

How the results depend on the processing

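G6pc, Pklr, Gys2 and Pygl were lower and Pfkfb1 higher in CLP than sham under all 22 alternatives, but the number of members called was not stable. For CLP versus sham it was 2, and it was 1 with library size alone or library sizes without acute phase genes, 0 without a low-count filter, with the replicate block or at an FDR of 0.01, 4 at an FDR of 0.1, 5 with edgeR on the 8 libraries, voom or either DESeq2 fit, and 0 to 5 leaving out single mice. For CLP+DCA versus CLP it was 0, with 2 by voom, 1 by either DESeq2 fit and 0 to 3 leaving out mice. For CLP+DCA versus sham it was 0 in all fits, leave-one-out included, except voom, with 1 (Pck1). All genes called in CLP versus sham went from 367 to 209 with library size alone, 122 without a filter, 46 with the replicate block, 2387 with edgeR on 8 libraries, 3417 by voom, 1906 and 3422 by DESeq2 on 12 and 8, 10 and 2022 at an FDR of 0.01 and 0.1, and 10 to 3157 leaving out mice. In CLP+DCA versus CLP the 1 call became 0 without acute phase genes, with edgeR on 8 libraries or at an FDR of 0.01, 4 with the replicate block, 6 at 0.1, 1287 by voom, 137 and 80 by DESeq2, and 0 to 616 leaving out mice. In CLP+DCA versus sham the 5 calls became 3 with library size alone, 9 without acute phase genes, 0 with the block or edgeR on 8 libraries, 1 at 0.01, 473 by voom, 243 and 169 by DESeq2, and 1 to 11 leaving out mice. The causes were not tested, apart from the fewer mice or genes that some settings hold by construction.

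Library size alone moved the median of all genes in CLP versus sham to -0.15, and library sizes without acute phase genes to 0.14. Higher and lower calls were then 100 and 109, and 402 and 97, against 216 and 151. Directions that turned were all of values that passed no test. With library size alone, Pcx turned to -0.017 in CLP versus sham and -0.054 in CLP+DCA versus sham, and G6pc3 to -0.081 and Slc2a1 to -0.13 in CLP versus sham. In CLP+DCA versus sham, G6pc turned to 0.049 and Pfkfb1 to 0.044 without acute phase genes, and voom gave -0.19 for Fbp1, 0.23 for G6pc, 0.23 for Pfkfb1 and -0.096 for Pcx. Leaving out single mice gave a range across 0 for Fbp1 in CLP versus sham (-0.032 to 0.59, turned by CLP replicate 2), CLP+DCA versus CLP (-0.59 to 0.33, turned by CLP replicate 2 and CLP+DCA replicates 1 and 2) and CLP+DCA versus sham (-0.17 to 0.45, turned by CLP+DCA replicate 3). The same held in CLP+DCA versus sham for G6pc (-0.17 to 0.19, sham replicate 2 and CLP+DCA replicate 3), Pfkfb1 (-0.23 to 0.20, sham replicate 1 and CLP+DCA replicate 3) and Pcx (-0.034 to 0.087, sham replicates 1 and 4 and CLP+DCA replicates 3 and 4), in CLP+DCA versus CLP for Pygl (-0.017 to 0.43, CLP+DCA replicate 4), and in CLP versus sham for Slc2a1 (-0.070 to 0.15, sham replicates 2 and 4 and CLP replicate 1). With variance-stabilised counts the genes named as most like the members still ranked between 1 and 5. The planned comparison of gene lengths from the table with those of the annotation was not run. Members had at least 384 reads in every mouse, so depth limited none of their values, and 4 mice per group limit the tests.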
